A study of Mus musculus with 8 samples.

Results

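The endothelial-to-mesenchymal transition (EndMT) factors described here are 7 genes, the zinc-finger repressors Snai1 and Snai2, the basic helix-loop-helix factors Twist1 and Twist2, the zinc-finger homeobox repressors Zeb1 and Zeb2, and Cdh2, which encodes N-cadherin. They were taken by symbol from the deposited table of 24411 genes, and all 7 were found and passed the filter on low counts. RNA was sequenced from whole aortas of 5 caIKK2EC mice and 3 Control mice. The caIKK2EC mice carried caIKK2(+/+), a constitutively active IKK2 with EGFP behind a loxP-flanked stop, together with BMXCreERT2(+/-), a Cre that tamoxifen activates in arterial endothelial cells. The Control mice were littermates with caIKK2(+/+) and BMXCreERT2(-/-), so they held the silent transgene and no Cre. All 8 mice were ApoE(-/-), were given tamoxifen (1 mg per 20 g on 5 days in a row) and ate a Western-type diet for 12 weeks. They were 18 or 19 weeks old and female, except for Control 3, a male of 19 weeks. Whether these mice had IKK2 switched on early or late in disease is not stated in the labels.

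In EndMT, endothelial cells lose junction proteins such as VE-cadherin and take on mesenchymal traits. TGF-β, Notch and inflammatory signals switch on the Snail, Twist and ZEB factors, which bind E-boxes in promoters and repress cadherin and other junction genes, while N-cadherin is gained. The same factors are also made by other aortic cells. Fibroblasts express Snai2, Twist1 and Twist2, macrophages and other leukocytes express Zeb2, and cardiac muscle is rich in N-cadherin. In RNA of a whole aorta, a change in the number of cells of a type and a change in RNA per cell cannot be told apart.

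Total counts were 23461655 to 30808502 per library. Ikbkb, the gene for IKK2, had 98.4 ± 4.07 CPM (SD, n = 5) in caIKK2EC and 79.7 ± 12.4 CPM (SD, n = 3) in Control libraries, with all caIKK2EC libraries above all Controls. CPM are counts scaled to library size with edgeR's TMM factors. Endothelial markers were present, as 5 of 5 were detected and their summed level was 1390 to 1968 CPM in caIKK2EC and 888 to 1935 CPM in Control. Control 3 stood apart: its 5 smooth muscle markers summed to 19490 CPM, against 5098 to 10980 CPM in the other 7 libraries, and its 7 macrophage markers to 1805 CPM, against 6294 to 11120 CPM. Cardiac muscle markers were high in 2 libraries, at 1009 CPM in caIKK2EC 1 and 2015 CPM in Control 1, against 36.3 to 142 CPM in the other libraries. The column names place caIKK2EC 1 and the 3 Controls in lane 7 and caIKK2EC 2 to 5 in lane 8, so lane and genotype are largely the same split. A fit with lane as a covariate therefore compares only caIKK2EC 1 with the Controls.

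The promoters of Snai1 and Zeb2, the 2 factors with the largest positive differences, and of Twist1, a factor with almost none, are shown because the family acts through E-boxes and Snail can bind its own promoter. Each window runs from 250 bases before to 50 bases after a RefSeq transcript start (GRCm38.p6), 5′ to 3′ on the gene's strand, at chr2:167537945-167538244 (plus) for Snai1, chr2:45117393-45117692 (minus) for Zeb2 and chr12:33957421-33957720 (plus) for Twist1. Capitals mark E-boxes, searched as CANNTG, which reads the same on both strands.
Snai1: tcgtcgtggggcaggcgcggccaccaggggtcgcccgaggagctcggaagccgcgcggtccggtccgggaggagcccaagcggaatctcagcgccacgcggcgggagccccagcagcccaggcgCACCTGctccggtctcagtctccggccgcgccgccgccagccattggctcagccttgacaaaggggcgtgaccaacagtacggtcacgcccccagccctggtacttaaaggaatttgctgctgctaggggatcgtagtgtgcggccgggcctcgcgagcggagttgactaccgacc
Zeb2: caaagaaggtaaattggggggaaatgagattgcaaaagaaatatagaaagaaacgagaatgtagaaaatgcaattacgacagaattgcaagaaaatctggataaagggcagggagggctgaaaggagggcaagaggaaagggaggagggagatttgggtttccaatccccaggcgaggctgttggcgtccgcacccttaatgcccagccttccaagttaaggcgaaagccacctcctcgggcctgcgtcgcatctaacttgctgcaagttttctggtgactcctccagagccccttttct
Twist1: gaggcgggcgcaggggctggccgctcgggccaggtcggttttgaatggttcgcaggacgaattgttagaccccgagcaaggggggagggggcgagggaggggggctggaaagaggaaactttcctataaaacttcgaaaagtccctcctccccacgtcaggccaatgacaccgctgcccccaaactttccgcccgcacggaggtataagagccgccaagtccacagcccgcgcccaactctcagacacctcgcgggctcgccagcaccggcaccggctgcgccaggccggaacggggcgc
The Snai1 window held 1 E-box, CACCTG, whose first base lies 126 bases before the start. CACCTG, or CAGGTG on the other strand, is the form that Snail and ZEB zinc fingers bind. It occurred in 20.2% of 32851 promoter windows of this length, and CANNTG in 72.3%. The windows of Twist1 and Twist2 and all 4 windows of Zeb2 held no CANNTG, and none of the windows searched held a match to the NF-κB consensus on either strand, which 4.51% of all windows did. The table gave no window for Snai2, Zeb1 and Cdh2. A match or its absence describes these letters only.

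All 7 genes were measured in every library, from 138 counts (Cdh2 in caIKK2EC 2, exact 95% Poisson interval 116 to 163, counting error only) to 5040 counts (Zeb2 in caIKK2EC 5). Ordered by the mean over all 8 libraries, per kilobase of annotated exon, Twist1 had the highest level, with 12.9 ± 2.62 CPM per kb in caIKK2EC and 13.5 ± 1.78 CPM per kb in Control (SD, n = 5 and 3). Zeb1 followed with 11.1 ± 1.70 CPM per kb in caIKK2EC and 13.9 ± 5.16 in Control, then Snai1 with 11.4 ± 3.55 in caIKK2EC and 6.53 ± 0.970 in Control. Zeb2 had 7.01 ± 1.45 CPM per kb in caIKK2EC and 4.86 ± 0.868 in Control, and Snai2 5.83 ± 0.612 in caIKK2EC and 4.98 ± 0.547 in Control. Twist2 (3.21 ± 0.518 in caIKK2EC and 3.27 ± 0.950 in Control) and Cdh2 (1.38 ± 0.424 in caIKK2EC and 1.44 ± 0.896 in Control) were lowest. Within Control alone the mean of Zeb1 was above that of Twist1, and within caIKK2EC alone that of Snai1 was above that of Zeb1. Neighbours in this order changed places between libraries for Twist1 and Zeb1, Zeb1 and Snai1, and Zeb2 and Snai2, each with the first above the second in 6 of 8 libraries. Snai1 lay above Zeb2, Snai2 above Twist2 and Twist2 above Cdh2 in all 8. The order depends on the length used: with the longest coding transcript in place of all exons, Zeb2 is counted over 9124 instead of 19942 bases and Zeb1 over 5801 instead of 10266, and the order becomes Zeb1, Zeb2, Twist1, Snai1, Snai2, Twist2, Cdh2.

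**Figure D1:**
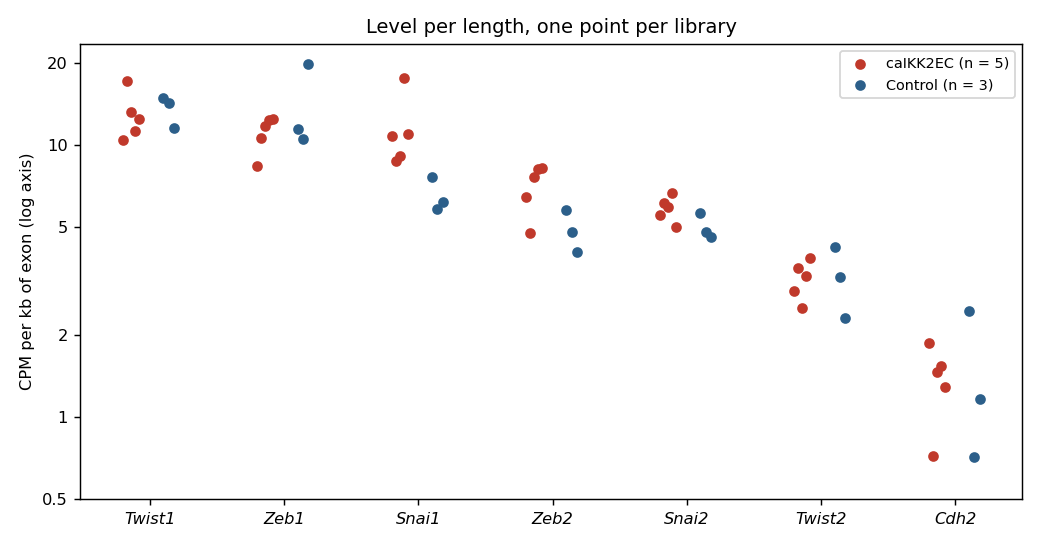
Level of each factor in CPM per kb of exon (log axis), 1 point per library, caIKK2EC (n = 5) left of Control (n = 3). Twist1, Zeb1 and Snai1 lie highest and Cdh2 lowest, and the groups separate for Snai1 alone.

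Of the 7 factors, Snai1 was the only one whose groups did not overlap, with every caIKK2EC library above every Control. Zeb2 was higher on average with overlapping groups, Snai2 differed by less, Zeb1 was lower on average with Control 3 alone high, and Twist1, Twist2 and Cdh2 had nearly equal means. No factor passed edgeR's quasi-likelihood test at a Benjamini-Hochberg adjusted p of 0.05, where 0 of 14679 genes (0%) did. At an unadjusted p under 0.05, 2 of the 7 passed (Snai1 and Zeb2, both higher), against 17.1% of all genes (9.66% higher and 7.47% lower in caIKK2EC). DESeq2 called 1 of the 7, Snai1, against 6.06% of 14340 genes (4.55% higher and 1.51% lower). Non-overlap held for 1 of the 7, against 10.2% of all genes (7.01% higher and 3.22% lower). The median log2 fold change was -0.0245 for the 7 and -0.0171 for all genes tested. Counts of 1 or 2 among 7 genes are no more than a few genes from these shares and are not read as a result about the factors as a set.

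**Figure D2:**
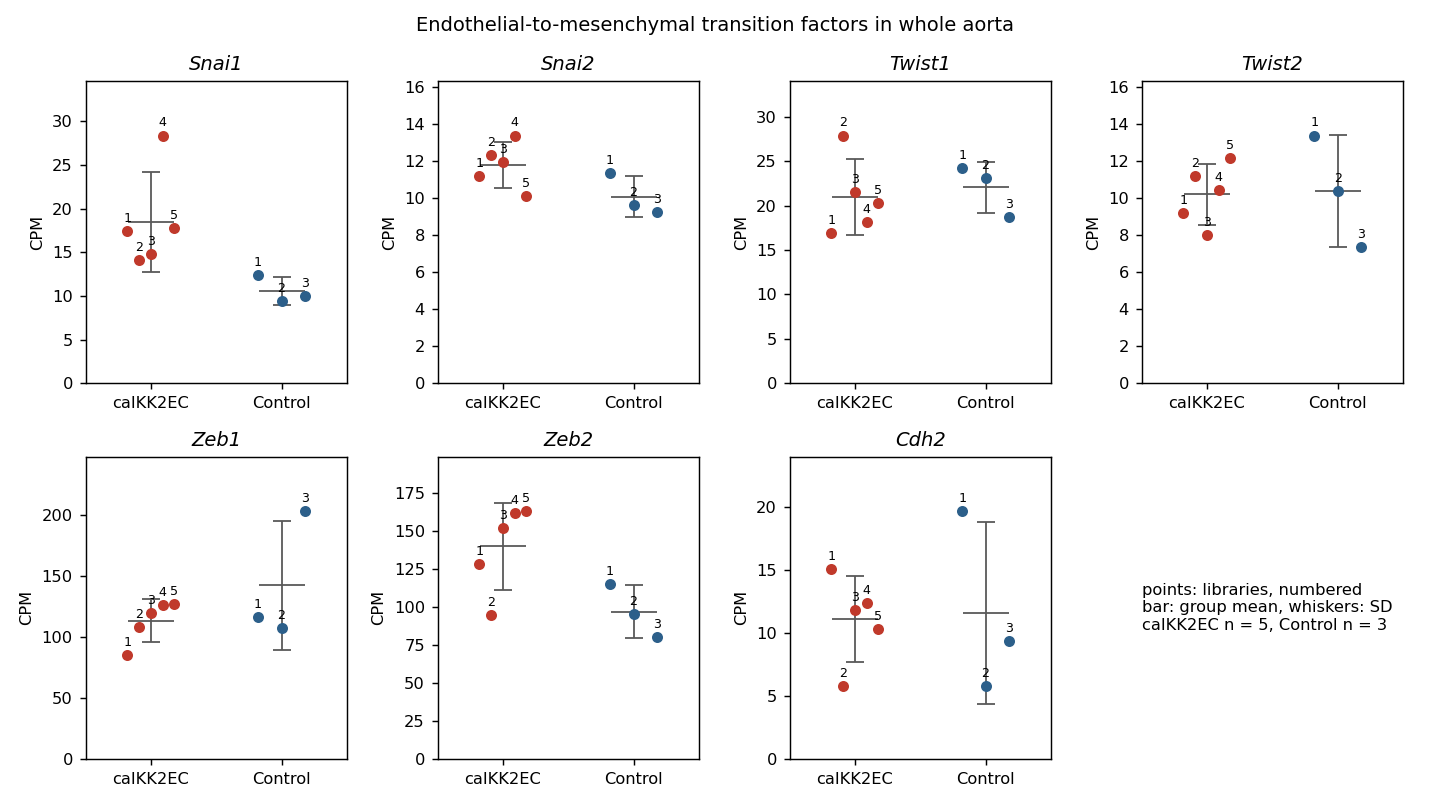
CPM of the 7 factors in each library (points, numbered as in the labels), with group means and SD, caIKK2EC (n = 5) left of Control (n = 3). Snai1 is 14.1 to 28.4 CPM in caIKK2EC and 9.39 to 12.4 CPM in Control, while the groups overlap for the other 6.

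Snai1 (ENSMUSG00000042821; chromosome 2, 167538195 to 167542814, plus strand, GRCm38), which encodes Snail, a repressor of E-cadherin and VE-cadherin, had 17.4, 14.1, 14.8, 28.4 and 17.8 CPM in caIKK2EC 1 to 5, against 12.4, 9.39 and 9.996 CPM in Control 1 to 3. Every caIKK2EC library was above the highest Control, and caIKK2EC 4 was far above the other caIKK2EC libraries. The means were 18.5 ± 5.75 CPM in caIKK2EC and 10.6 ± 1.57 CPM in Control (SD, n = 5 and 3), a ratio of 1.75. The log2 fold change in edgeR was 0.80 (SE 0.24, 95% interval 0.27 to 1.34, adjusted p = 0.155), and the two-sided exact permutation p was 0.0357, the smallest that 5 against 3 allows, 1 of 7 such tests. DESeq2 called Snai1 (log2 fold change 0.80, adjusted p = 0.0320). The authors' deposited table, from the same tool with the same values, is no separate source for this call. That call was lost without caIKK2EC 4 (adjusted p = 0.0519), caIKK2EC 5 (0.0917), Control 2 (0.138) or Control 3 (0.146). With lane as a covariate the DESeq2 log2 fold change was 0.72, from caIKK2EC 1 alone against the Controls. Resting on 1 caIKK2EC library, this fit does not show that the call holds. Snai1 was at 0.62 in edgeR without caIKK2EC 4 and 0.72 within lane 7 (caIKK2EC 1 minus the Control mean).

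Snai2 (ENSMUSG00000022676; chromosome 16, 14705852 to 14709385, plus strand), which encodes Slug, the paralogue that fibroblasts and other mesenchymal cells express, had 11.2, 12.3, 12.0, 13.4 and 10.1 CPM in caIKK2EC 1 to 5, against 11.3, 9.61 and 9.26 CPM in Control 1 to 3. It varied least among the 7 in caIKK2EC, with a coefficient of variation of 10.5%, and Control 1 lay within the caIKK2EC range. The log2 fold change was 0.23 (SE 0.15, 95% interval -0.11 to 0.57, adjusted p = 0.479 in edgeR; exact permutation p = 0.107). The Snai1 to Snai2 ratio of counts in the same library, which needs no scaling between libraries, was 1.56, 1.14, 1.24, 2.12 and 1.76 in caIKK2EC 1 to 5 and 1.09, 0.977 and 1.08 in Control 1 to 3. The groups did not overlap in this ratio, which was chosen after the values were seen and was not tested.

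Twist1 (ENSMUSG00000035799; chromosome 12, 33957671 to 33959829, plus strand) encodes a mesoderm factor that drives migration and can be induced by NF-κB. Its levels were 16.9, 27.9, 21.5, 18.2 and 20.3 CPM in caIKK2EC 1 to 5, against 24.2, 23.1 and 18.8 CPM in Control 1 to 3. The highest and the lowest library were both caIKK2EC. The log2 fold change was -0.07 (SE 0.17, 95% interval -0.46 to 0.31, edgeR adjusted p = 0.874; exact permutation p = 0.679). Twist2 (ENSMUSG00000007805; chromosome 1, 91801461 to 91848028, plus strand), the paralogue of dermal and other fibroblasts, had 9.20, 11.2, 7.98, 10.4 and 12.2 CPM in caIKK2EC 1 to 5, against 13.4, 10.4 and 7.34 CPM in Control 1 to 3. Here both ends of the range were Controls. Twist2 had a log2 fold change of -0.02 (SE 0.22, 95% interval -0.51 to 0.46, edgeR adjusted p = 0.972; exact permutation p of 1). The sign of both Twist genes changed when single libraries were left out. Beside Snai2, Twist1 and Twist2, the summed fibroblast markers (6 of 6 detected, 4 with a positive log2 fold change) were 4138 to 5948 CPM in caIKK2EC and 2510 to 4930 CPM in Control. These sums overlapped and were lowest in Control 3, and their part in the values of the 3 genes was not tested.

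Zeb1 (ENSMUSG00000024238; chromosome 18, 5591860 to 5775467, plus strand) encodes a repressor of E-cadherin that smooth muscle and other mesenchymal cells express. It had 85.4, 108.5, 120, 127 and 127 CPM in caIKK2EC 1 to 5, against 117, 107.5 and 203.5 CPM in Control 1 to 3. Control 3 alone was high, and the other 2 Controls lay inside the caIKK2EC range. Zeb1 had a log2 fold change of -0.33 (SE 0.22, 95% interval -0.81 to 0.15, edgeR adjusted p = 0.475; exact permutation p of 0.5). It was 0.02 when Control 3 was left out. With lane as a covariate, which compares caIKK2EC 1 alone with the Controls, it was -0.74. Beside this, the summed smooth muscle markers (5 of 5 detected) were 5098 to 10730 CPM in caIKK2EC and 9727 to 19490 CPM in Control. The highest sum was in Control 3 and the lowest in caIKK2EC 1, the libraries with the highest and lowest Zeb1. Between these ends Zeb1 did not rise with the sums. The sums of caIKK2EC 4 and 5 were 7237 and 7332 CPM, with Zeb1 at 127 CPM in both. Those of caIKK2EC 2 and Control 2 were 10730 and 10980 CPM, with Zeb1 at 108.5 and 107.5 CPM. Among these markers Myh11, the smooth muscle myosin gene, was at 8265 CPM in Control 3. Their part in the Zeb1 values was not tested.

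Zeb2 (ENSMUSG00000026872; chromosome 2, 44983632 to 45117395, minus strand), the paralogue that also acts in macrophage and lymphocyte differentiation, had 128, 94.7, 152, 162 and 163 CPM in caIKK2EC 1 to 5, against 115, 95.3 and 80.3 CPM in Control 1 to 3. Of the caIKK2EC libraries, 4 were above every Control, and caIKK2EC 2 lay below 2 of the 3 Controls. The means were 140 ± 28.8 CPM in caIKK2EC and 96.9 ± 17.3 CPM in Control (SD, n = 5 and 3), a ratio of 1.44. The log2 fold change was 0.53 (SE 0.19, 95% interval 0.10 to 0.96, edgeR adjusted p = 0.213; DESeq2 adjusted p = 0.107; exact permutation p = 0.107). It was 0.41 without Control 3 and 0.42 within lane 7. DESeq2 called it without caIKK2EC 2 (log2 fold change 0.64, adjusted p = 0.00208), the caIKK2EC library that overlaps the Controls. Leaving out any other single library gave no call, with DESeq2 adjusted p from 0.0552 (without Control 1) to 0.390 (without Control 3).

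The summed macrophage markers (7 of 7 detected, 7 with a positive log2 fold change) were 7786 to 11120 CPM in caIKK2EC and 1805 to 6522 CPM in Control, so these sums did not overlap between the groups. Their lowest value was in Control 3, the library with the lowest Zeb2, and within caIKK2EC the lowest was in caIKK2EC 2, again the lowest in Zeb2. Other libraries kept this order only in part. In caIKK2EC 1, 3, 4 and 5 the sums were 8200 to 11120 CPM and Zeb2 was 128 to 163 CPM, both above Control 1 and Control 2. The sum of caIKK2EC 2, 7786 CPM, was also above these Controls, but its Zeb2 (94.7 CPM) was below both. Within the groups the order also changed. The sum was 8200 CPM in caIKK2EC 4 and 11120 CPM in caIKK2EC 3, with Zeb2 at 162 and 152 CPM. It was 6294 CPM in Control 1 and 6522 CPM in Control 2, with Zeb2 at 115 and 95.3 CPM. The T and NK cell markers (6 of 6 detected) were 54.1 to 99.2 CPM in caIKK2EC and 21.2 to 60.1 CPM in Control, with 4 of 6 positive. Most of that sum was Cd4, which macrophages can also express, with a mean of 69.7 CPM in caIKK2EC and 35.8 CPM in Control. The other 5 had log2 fold changes of -0.32 (Cd8a) to 0.19 (Cd3e). The part of either marker list in the Zeb2 difference was not tested. Reads of Zeb2os, an antisense gene that overlaps Zeb2 exons, cannot be told apart from Zeb2 reads if the counting ignored strand. Zeb2os had 9.03 ± 0.535 CPM in caIKK2EC and 7.72 ± 2.145 CPM in Control, far under Zeb2. Within a library the Zeb2 to Zeb1 ratio of counts was 1.501, 0.873, 1.27, 1.28 and 1.28 in caIKK2EC 1 to 5 and 0.985, 0.887 and 0.395 in Control 1 to 3. Only caIKK2EC 2 overlapped the Controls in this ratio, and Control 3 was lowest.

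**Figure D3:**
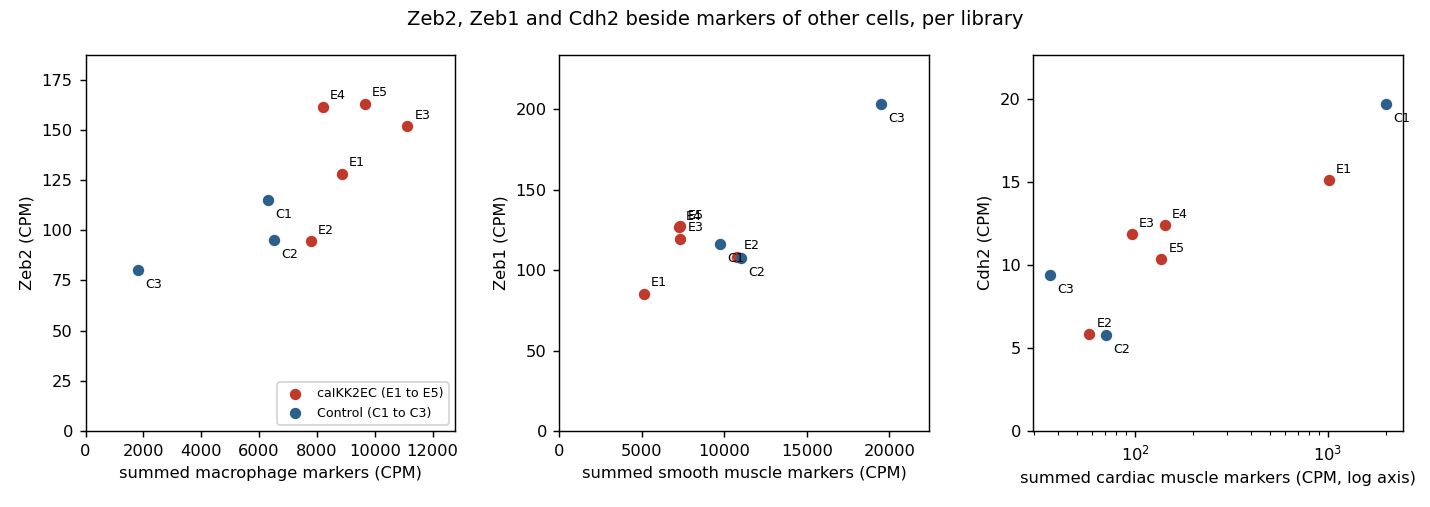
Level of Zeb2, Zeb1 and Cdh2 (CPM) against the summed CPM of macrophage, smooth muscle and cardiac muscle markers in the same library (cardiac on a log axis), with caIKK2EC 1 to 5 as E1 to E5 and Control 1 to 3 as C1 to C3. Control 3 has the fewest macrophage and the most smooth muscle marker counts and is lowest in Zeb2 and highest in Zeb1, while Control 1 and caIKK2EC 1 are highest in both cardiac markers and Cdh2. The remaining libraries follow the order of the marker sums only in part for Zeb2, and do not follow it for Zeb1.

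Cdh2 (ENSMUSG00000024304; chromosome 18, 16588877 to 16809246, minus strand), the adhesion molecule gained in the transition and the effector among the 7, had 15.1, 5.81, 11.8, 12.4 and 10.3 CPM in caIKK2EC 1 to 5, against 19.7, 5.77 and 9.40 CPM in Control 1 to 3. Its spread was the widest among the 7 in Control, with a coefficient of variation of 62.2% in Control and 30.8% in caIKK2EC. Cdh2 had a log2 fold change of -0.07 (SE 0.39, 95% interval -0.94 to 0.80, edgeR adjusted p = 0.953; exact permutation p = 0.893). Leaving out Control 1 gave 0.57 (edgeR adjusted p = 0.433). The 2 libraries highest in Cdh2, Control 1 and caIKK2EC 1, were those highest in cardiac muscle markers (6 of 6 detected, 57.8 to 1009 CPM in caIKK2EC and 36.3 to 2015 CPM in Control). Myh6, the cardiac α-myosin gene, was at 480 CPM in caIKK2EC 1 and 902 CPM in Control 1, against 5.04 to 23.01 CPM elsewhere. Without these 2 libraries together, an alternative chosen after the values were seen, the log2 fold change was 0.43 (SE 0.34, edgeR adjusted p = 0.537). The part of cardiac tissue in the Cdh2 values was not tested.

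**Figure D4:**
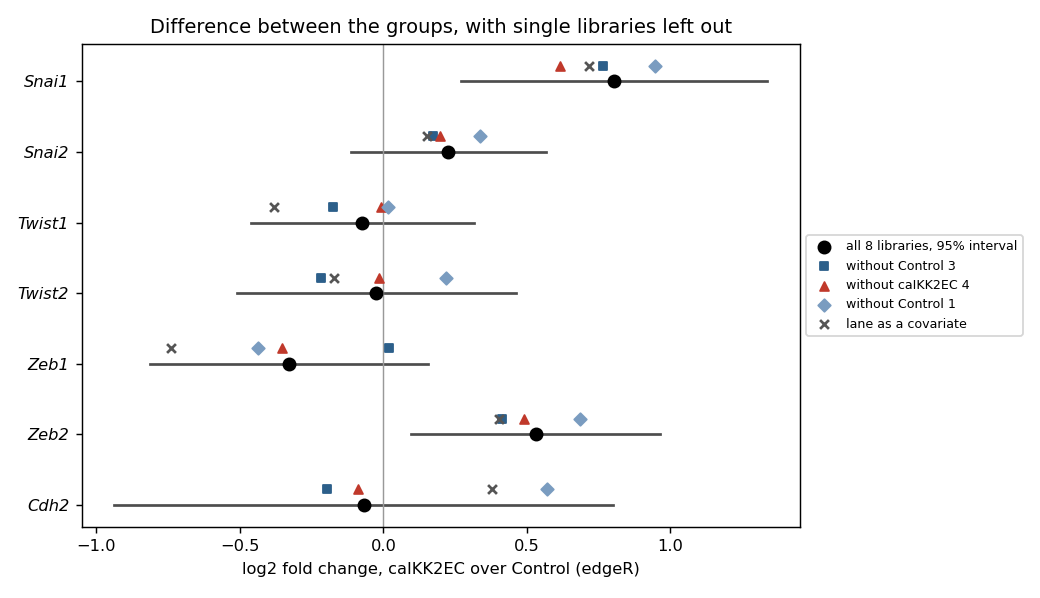
Log2 fold change of caIKK2EC over Control for each factor (edgeR, black, with 95% interval) and the values without Control 3, caIKK2EC 4 or Control 1 or with lane as a covariate. Snai1 (0.80) and Zeb2 (0.53) stay above 0 in all of these, and Zeb1, Twist1, Twist2 and Cdh2 cross 0 in at least 1. The lane values compare caIKK2EC 1 alone with Control.

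Genes around the factors were counted in 6 lists, to be read beside the background shares, which were 0% for edgeR and 6.06% for DESeq2. Since 0 or 1 call in a list of 12 to 24 genes is near these shares, the counts are not a result about any list. Among signals that induce EndMT, 0 of 24 passed in edgeR or DESeq2, with a median log2 fold change of 0.05 against -0.02 for all genes tested. Tgfb1, the classical inducer, had 214 ± 17.6 CPM in caIKK2EC and 168 ± 14.8 CPM in Control (log2 fold change 0.35, edgeR adjusted p = 0.189, DESeq2 adjusted p = 0.0601), and the Notch ligand gene Jag1 had 101 ± 20.2 CPM in caIKK2EC and 75.6 ± 1.65 CPM in Control (0.41, edgeR adjusted p = 0.240). In these 2 genes of the 24, every caIKK2EC library lay above every Control, as held for 7.01% of all genes. Ctnnb1, which encodes β-catenin and was the most abundant of the list, had a log2 fold change of 0.05 (edgeR adjusted p = 0.903). Of the partner and regulator transcription factors, 0 of 19 tested passed in either tool (median -0.08). Id4, an inhibitor of helix-loop-helix factors, was at -0.69 (edgeR adjusted p = 0.233), Sox4 at 0.29 (0.291) and Id3, the most abundant, at -0.08 (0.806). Snai3, the remaining Snail gene, had 0 to 5 counts in every library and was not tested. Of 17 corepressors and regulators of protein stability, 0 passed in either tool (median 0.11), with the kinase gene Pak1 at 0.56 (edgeR adjusted p = 0.339), the ubiquitin ligase gene Btrc at -0.24 (0.411) and the corepressor gene Ctbp1, the most abundant, at 0.04 (0.876).

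Genes that lie downstream lay on both sides of 0. Of 19 mesenchymal genes, 0 passed in either tool, again beside 0% and 6.06% of all genes, and 9 had a positive and 10 a negative log2 fold change (median -0.02). The contractile genes Acta2 (6807 ± 1940 CPM in caIKK2EC and 11940 ± 4352 CPM in Control) and Tagln (3200 ± 816 CPM in caIKK2EC and 5137 ± 1469 CPM in Control), commonly used as EndMT readouts and mainly made by smooth muscle in an aorta, had log2 fold changes of -0.81 and -0.68 (edgeR adjusted p = 0.201 and 0.207). Of 18 endothelial genes, 0 passed in edgeR and 1 was called higher by DESeq2 (median 0.11). This was Vwf, which encodes von Willebrand factor, with 1080 ± 113 CPM in caIKK2EC and 716 ± 221 CPM in Control (log2 fold change 0.59, DESeq2 adjusted p = 0.0488, edgeR adjusted p = 0.191). Fli1, an endothelial and blood transcription factor gene, was at 0.35 (edgeR adjusted p = 0.382). Cdh5, which encodes VE-cadherin, the junction gene that Snail represses, had 273 ± 45.7 CPM in caIKK2EC and 219 ± 66.7 CPM in Control (log2 fold change 0.32, edgeR adjusted p = 0.487), and is named outside the rule. Of 12 tested genes of cadherins and catenins, 0 passed in edgeR and 1 was called lower by DESeq2 (median -0.24). Pkp4, encoding plakophilin 4, had 193 ± 30.1 CPM in caIKK2EC and 327 ± 138 CPM in Control (-0.76, DESeq2 adjusted p = 0.0453), with 486 CPM in Control 3. Jup, encoding plakoglobin, was at -0.32 (edgeR adjusted p = 0.203) and Vcl, encoding vinculin, at -0.21 (0.601).

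**Figure D5:**
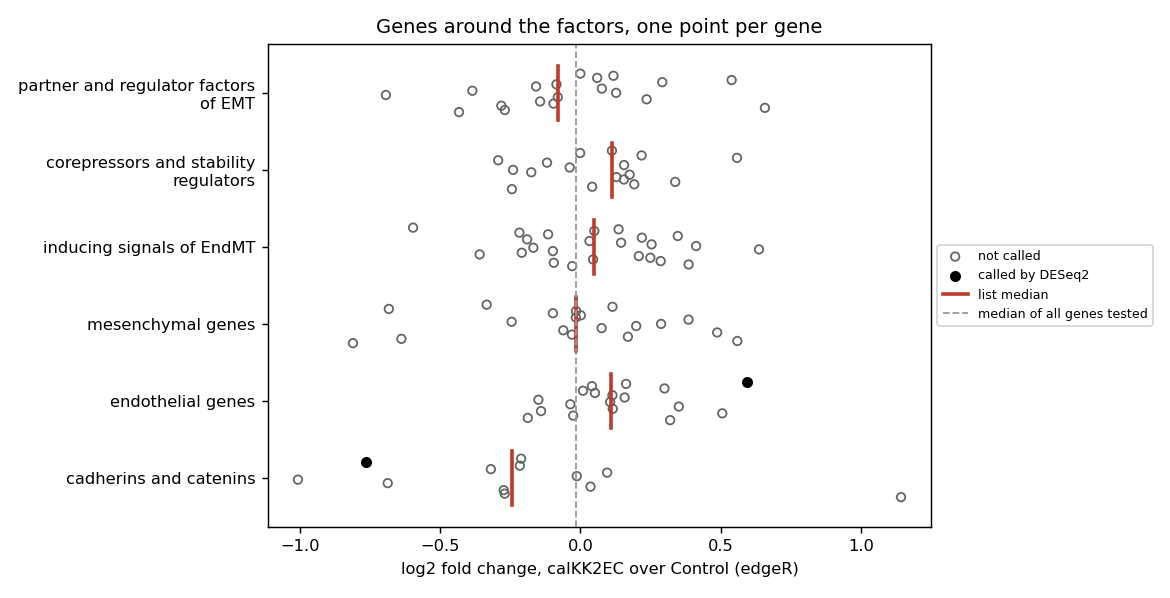
Log2 fold change (edgeR, caIKK2EC over Control) of each tested gene in 6 lists around the factors, with list medians (red) and the median of all genes (dashed, -0.02). Filled points are the 2 genes called by DESeq2, Vwf at 0.59 and Pkp4 at -0.76.

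No gene was among the 3 most like more than 1 of the factors in its pattern across libraries. Likeness was Pearson's r of log2 CPM over the 8 libraries, ranked among 11325 genes with a mean of at least 5 CPM, so high values arise by the search itself and carry no test. Closest to Snai1 were Ptk7, a pseudokinase gene of planar cell polarity (r = 0.975), the metalloproteinase gene Adamts7 (0.970) and the Notch target gene Hey1 (0.963). Closest to Snai2 were Ebag9 (0.957), Cdan1 (0.929) and the mitochondrial protease gene Oma1 (0.928). For Twist1 these were Fam219b (0.969), the ubiquitin-conjugating enzyme gene Ube2r2 (0.968) and Dpm2 (0.942). For Twist2 they were 3830406C13Rik (0.958), the fibroblast activation protein gene Fap (0.941) and Usp35 (0.926). Zeb1 was most like Cacna2d1, a calcium channel subunit gene (0.994), Mpdz (0.992) and the adenylate cyclase gene Adcy9 (0.989). Zeb2 was most like Tmem184c (0.982), Slc46a3 (0.979) and the small GTPase gene Arf6 (0.978). Cdh2 was most like Gpcpd1 (0.964), the small GTPase gene Rap1a (0.929) and Mettl5 (0.925).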

How the data were processed

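Poly(A) RNA of whole aortas, each from 1 mouse, was read as single reads of 50 nt from a directional library, per the labels' protocols. The authors deposited raw counts per gene for 8 libraries. Per the submitters' processing notes, FastQC 0.11.5, STAR 2.7.0e and DESeq2 1.22.2 were used with GRCm38 (mm10). For the counting, the program, annotation and use of strand were not given in the sources used here. The authors' deposited comparison table holds log2 fold changes, a test score, p-values and, as a signal that is never negative, counts divided by size factors. Its regularized log2 values were not used.

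In R 4.3.3, the quasi-likelihood test of edgeR 4.0.16 (robust, group as the only term) was fitted to the counts of the 14679 genes that its default filter kept, with TMM scaling, Benjamini-Hochberg adjustment and a threshold of 0.05. SEs were derived from the F statistic. DESeq2 1.42.0 and limma 3.58.1 (voom) served as alternatives. DESeq2 was run beside it on genes with a total of at least 10 counts. For each member, an exact two-sided permutation test on log2(CPM + 0.5) went through all 56 assignments of 8 libraries to groups of 5 and 3. The fits were tested on simulated data. Alternatives covered scaling, filter, tool, lane, sex, age and each library left out. Of the gene names, 27 had been turned into dates, none of them a member. Gene positions and exon lengths come from GENCODE M21, promoters from RefSeq. Ccn2 and Afdn were found under the older symbols Ctgf and Mllt4.

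The members and gene lists were chosen with earlier results of these data known. All 7 members are described. From each list the 2 genes with the smallest p and the most abundant one are named, as none passed in edgeR, and the 3 genes most like each member. Cdh5, Pkp4's values per library, Snai3 and the genes named last were added with their values known.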

Additional observations from a re-analysis of the deposited data

Results flagged for a closer look

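Snai1 in caIKK2EC 4 stood at 28.4 CPM, against 14.1 to 17.8 CPM in the other 4 caIKK2EC libraries and 9.39 to 12.4 CPM in Control. Its gap to the next library was 0.740 of the group's range, above Dixon's 95% limit of 0.71 for 5 samples. Chance puts a group past this limit about 1 time in 20, and 7 genes were looked at. Without caIKK2EC 4 the log2 fold change was 0.62 in edgeR (adjusted p = 0.250). Taking out the highest library could not change that every caIKK2EC library lay above every Control.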

How the results depend on the processing

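Snai1, Snai2 and Zeb2 kept a positive sign under all 22 alternatives, at 0.57 to 0.96, 0.15 to 0.35 and 0.38 to 0.71 on the log2 scale. The count of factors past the threshold was 0 in edgeR and limma throughout, 1 with DESeq2 and 1 with DESeq2 and age as a covariate. It ranged from 0 to 2 when DESeq2 was run without each library, an alternative chosen after seeing the data, as were DESeq2 with lane or age. DESeq2 with lane rests on caIKK2EC 1 alone against the Controls and is given by effect size only. Over all genes edgeR called 0 in the main fit, 661 with age as a covariate and 359 without caIKK2EC 2. DESeq2 called 869, and 1792 of 14407 with age as a covariate. Leaving out single libraries gave -0.20 to 0.0161 for Twist1, -0.22 to 0.22 for Twist2, -0.48 to 0.0194 for Zeb1 and -0.37 to 0.57 for Cdh2, each crossing 0. Zeb1 was 0.0188 with sex as a covariate. Cdh2 was 0.0543 with limma voom, 0.38 with lane, 0.055 with age, 0.39 and 0.0558 in DESeq2 with lane and age, and 0.43 without caIKK2EC 1 and Control 1, where Twist1 was 0.0793 and Twist2 0.25. The cause of these changes was not tested. Of the same-numbered libraries, deviations from the group means correlated at 0.335, 0.0989 and 0.0968. Libraries with unlike numbers gave -0.279 to 0.0446. With so few libraries these values cannot decide whether the numbers pair the mice. With the number as a block, 0 factors passed, Snai1 was 0.57, Cdh2 0.0048 and Twist1 0.0072, and without it on the same 6 libraries Snai1 was 0.57 and Twist1 0.0253. The exact test singled out 1 factor, Snai1, under both other scalings and with a pseudocount of 1 or 2; with a library left out it cannot fall below 0.05 and was not run. The lowest count of a factor was 138; how much of the spread is counting error was not separated from differences between mice.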

Other observations

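Within the mesenchymal list, the genes named here, chosen with their values known, lay on both sides of 0. Col3a1, a fibrillar collagen gene, had 5671 ± 900 CPM in caIKK2EC and 4045 ± 686 CPM in Control (SD, n = 5 and 3; log2 fold change 0.49, edgeR adjusted p = 0.249), with every caIKK2EC library above every Control. Such non-overlap held for 1 of the 19 genes in the list and for 7.01% of all genes. Mmp2, a matrix metalloproteinase gene, had 400.5 ± 34.6 CPM in caIKK2EC and 307 ± 49.7 CPM in Control (0.39, edgeR adjusted p = 0.209). Cnn1, the calponin gene, had 828 ± 246.5 CPM in caIKK2EC and 1288 ± 288 CPM in Control (-0.64, edgeR adjusted p = 0.231). None of these passed. Fibroblast markers had summed levels of 4138 to 5948 CPM in caIKK2EC and 2510 to 4930 CPM in Control. Their log2 fold changes were 0.98 for Lum, a matrix proteoglycan gene, 0.43 for Dcn, the decorin gene, and 0.38 for Dpt. Those of the rest were 0.02 for Pdgfra, -0.17 for Pi16 and -0.25 for Serpinf1. The part of these markers in the Col3a1 and Mmp2 values was not tested.

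Cdh1, which encodes E-cadherin, the best known gene repressed by Snail, was low and had its largest value in the library with the most Snai1. It had 2.72, 1.73, 2.31, 5.87 and 3.52 CPM in caIKK2EC 1 to 5, against 1.70, 0.555 and 2.16 CPM in Control 1 to 3. Its log2 fold change was 1.14 (SE 0.51, edgeR adjusted p = 0.292), and the groups overlapped. Hey1, the Notch target, was also highest in caIKK2EC 4, with 13.2, 9.77, 11.2, 24.1 and 15.0 CPM in caIKK2EC 1 to 5, against 10.85, 8.65 and 8.80 CPM in Control 1 to 3 (log2 fold change 0.64, edgeR adjusted p = 0.284). As Hey1 was found by its likeness to Snai1, this shared peak restates that search. Hey2 and Hes1, of the same list as Hey1, were at -0.17 and -0.10.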
